A study of Mus musculus with 4 samples.

Results

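The genes followed here are 10 that the transcription factor p53 is known to switch on and whose products act in cell death, measured after knock-down of FBL in mouse embryonic stem cells. The 10 genes are Pmaip1, Bbc3, Bax, Fas, Tnfrsf10b, Eda2r, Apaf1, Pidd1, Perp and Aen. They were read by every array probe whose RefSeq transcript accession belongs to one of them, which gave 17 probes of 41174 on the array. FBL is fibrillarin, the nucleolar enzyme that methylates ribosomal RNA. All 4 samples came from embryonic stem cells with a tetracycline-controlled (Tc) FBL knock-down, kept on gelatin with leukaemia inhibitory factor (LIF) for 2 days. The 2 FBL-knock down samples had no Tc, and the 2 control samples had 1000 ng/mL Tc and expressed FBL. The presence of Tc and the level of FBL changed together, so their effects cannot be told apart. Whether replicate samples are separate cultures, or the cells a single clone, is not stated in the labels, and p-values measure only the spread between these samples.

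p53 is held low in unstressed cells by the ubiquitin ligase MDM2, and disturbance of the nucleolus is one of the stresses known to release it. Its death targets feed both routes of apoptosis. PMAIP1 (NOXA) and BBC3 (PUMA) are BH3-only proteins that bind the prosurvival members of the BCL2 family, BAX then opens the outer mitochondrial membrane, and APAF1 assembles with the released cytochrome c into the apoptosome, which activates caspases. FAS and TNFRSF10B are death receptors at the cell surface.

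Expression was measured on 1-colour Agilent arrays, 1 per sample, and values are log2 signals relative to the 75th percentile of each array. Between 24499 and 26408 probes per array were well above background. Fbl itself had 5.98 and 5.94 in the FBL-knock down samples, against 8.63 and 8.12 in the controls, a change of −2.41 ± 0.25 (SE, n = 2 per group, limma adjusted p = 0.000547). Of 12 embryonic stem cell markers 11 had a probe, and all 11 were well above background on all 4 arrays, with 0 passing the test in either direction. FBL-knock down 2 was hybridised on a second slide and the other 3 samples on the first. The median gap between replicates over all 25100 tested probes was 0.12 in the FBL-knock down samples, against 0.38 in the controls.

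Of the 17 probes of the death genes, 8 were higher in the FBL-knock down samples and 0 were lower, and these 8 belong to 6 of the 10 genes. They are Pmaip1, Fas, Apaf1, Pidd1 and Perp, with changes of 1.36 to 2.04 on the log2 scale at the probes that passed, and Eda2r, whose signal in the controls was not well above background. Without Eda2r, left out after seeing the data, 7 of 16 probes and 5 of 9 genes were higher. Bbc3, Bax, Tnfrsf10b and Aen had changes of 0.58 to 0.85 at their 7 probes, and 0 of these passed. A probe was called where limma's adjusted p over all tested probes was under 0.05. By that rule 3.65% of the 25100 tested probes were higher and 2.43% were lower, 6.08% in all. The 10 genes were chosen with earlier results of these data known, so their counts beside these shares are not independent support. All 17 probes of the death genes entered the test, 16 of them well above background on all 4 arrays and that of Eda2r only through the FBL-knock down samples, so its call is not on the footing of the others. Their median change was 0.85, or 0.80 with Eda2r set at the approximate bound given with its values, beside −0.06 over all tested probes. Both FBL-knock down values lay above both controls at 15 of the 17 probes, which 20.8% of all tested probes did, while 30.6% lay below both and 0 of the 17 did. The change was positive at 16 of the 17, as at 44.1% of all, and 15 had an unadjusted p under 0.05 in that direction, as 9.43% of all did. Eda2r is included in each of these counts, with the same limit as its call. The smallest change called anywhere on the array was 0.86 in size. In these bulk samples a change in the share of cells that express a gene and a change of its RNA per cell cannot be told apart.

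**Figure D1:**
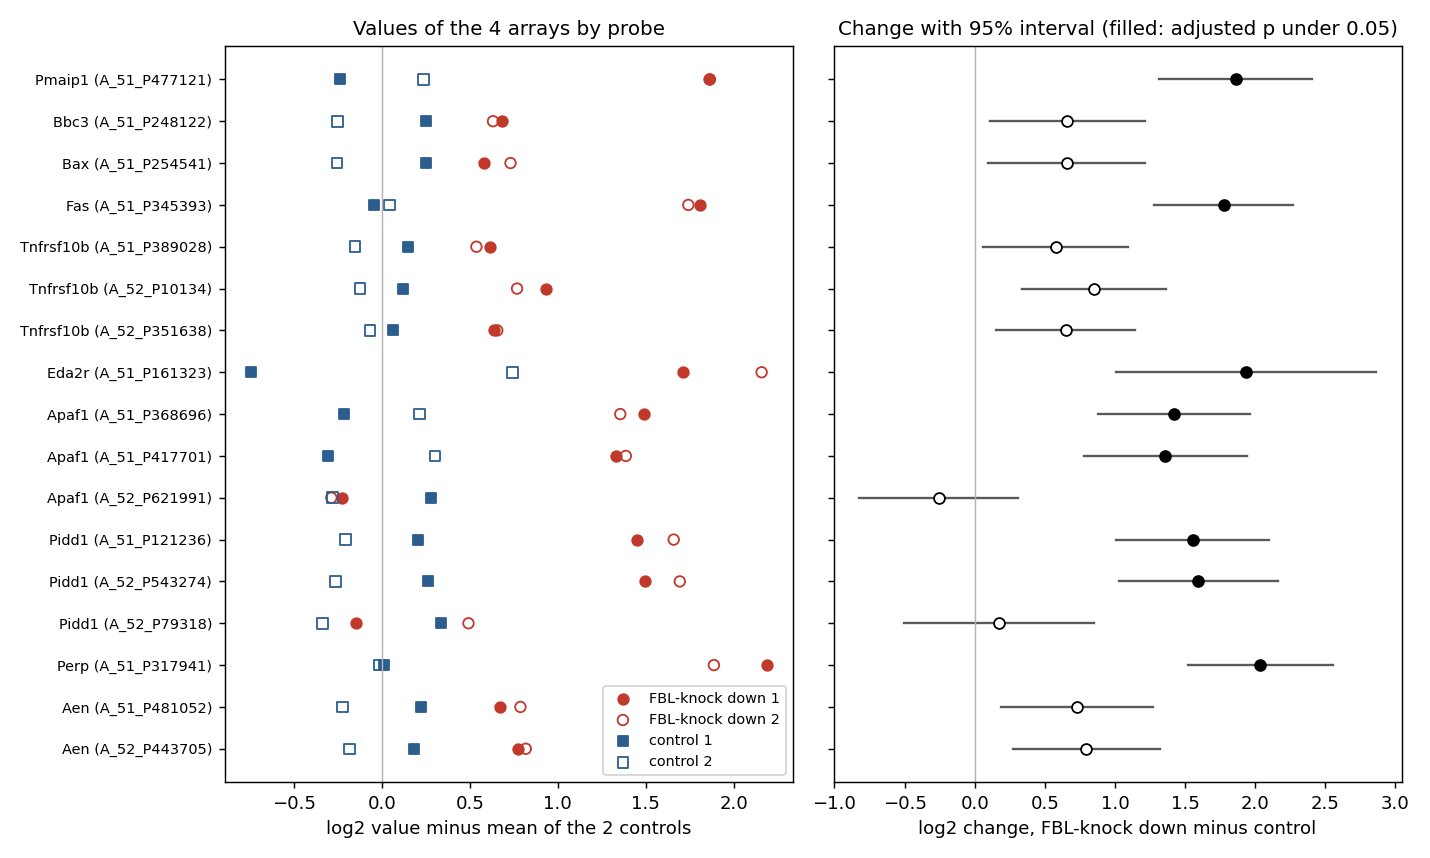
Left, the log2 value of each of the 17 probes on each array, minus the mean of the 2 controls for that probe; right, the FBL-knock down minus control change with its 95% interval from limma, filled where the adjusted p was under 0.05. Filled changes run from 1.36 to 2.04, and 1 probe of Apaf1 and 1 of Pidd1 lie near 0 while the other probes of these genes do not.

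Among the BCL2 family genes, Pmaip1 rose and Bbc3 and Bax did not pass. Pmaip1 had values of 1.36 and 1.36 in the FBL-knock down samples, against −0.74 and −0.26 in the controls. The FBL-knock down samples were alike and lay 1.62 above the higher control. The change was 1.86 ± 0.24, a 3.63-fold rise with a 95% interval of 2.49 to 5.31 (limma adjusted p = 0.00189).

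Bbc3 had values of 5.23 and 5.18 in the FBL-knock down samples, against 4.80 and 4.30 in the controls. Both FBL-knock down samples were above both controls, and control 2 was the lowest. Its change of 0.66 ± 0.25, or 1.58-fold with an interval of 1.08 to 2.32, did not pass (limma adjusted p = 0.171). Bax, whose product forms the pore, had 5.83 and 5.98 in the FBL-knock down samples, against 5.51 and 4.999 in the controls. The groups did not overlap, by a gap of 0.33 that was smaller than the distance of 0.51 between the controls. Its change of 0.66 ± 0.25 did not pass either (limma adjusted p = 0.177). Without control 1 the changes of Bbc3 and Bax were both 0.91, and without control 2 they were 0.41 and 0.40. A fit with 1 control takes its spread from the FBL-knock down pair alone, so it leaves out the spread between the controls.

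The Bax probe is printed 10 times on each array, so its repeatability within an array can be read. The spot signals, before any scaling, ran from 33403 to 38519 and from 30881 to 32992 in FBL-knock down 1 and 2, against 23849 to 27241 and 24522 to 26738 in controls 1 and 2. All spots of the FBL-knock down arrays were brighter than all spots of the control arrays. The spots of an array repeat 1 sample and are unscaled, so this order is not a comparison of the groups. Over the 10 spots the standard deviation was 0.06 and 0.03 on the log2 scale in FBL-knock down 1 and 2, against 0.06 and 0.04 in controls 1 and 2, well under the distance between the scaled controls. The 75th percentile by which an array is scaled was 633 and 501 in FBL-knock down 1 and 2, against 557 and 800 in controls 1 and 2, and the medians of the Bax spots before scaling were 35988 and 31631, against 25195 and 25547. The 2 controls thus differed little in unscaled Bax signal and more after scaling.

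**Figure D2:**
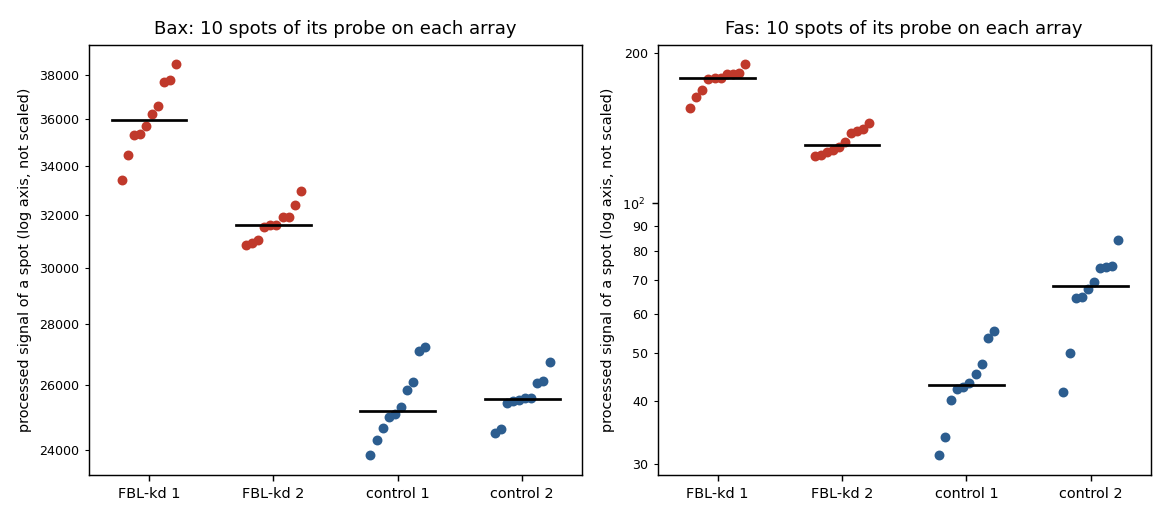
Processed signal, on a log axis and not scaled between arrays, of the 10 spots of the Bax probe (left) and of the Fas probe (right) on each array, with the median as a line. In both panels every spot of the FBL-knock down arrays lies above every spot of the control arrays, and the Fas spots of the controls, at 31.2 to 84.1, spread more than those of the FBL-knock down arrays.

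RefSeq promoter windows, from 250 bases before to 50 after an annotated start, were given for 7 of the 10 genes and read for the p53 half-site consensus, a palindromic motif of 10 bases that reads alike on both strands, with no mismatch allowed. It occurred in 2 of these 7 genes, Bax and Aen, and in 9.55% of the 27025 genes with such a window. A pair of half-sites within 13 bases occurred in 0 of the 7 and in 20 of all genes. The windows of Bax and Aen are shown because they hold the motif, in capitals, and those of Fas and Pidd1 as 2 examples without it among the genes that rose (RefSeq, GRCm38.p6, each read along its gene). The half-site of Bax begins 201 bases before the start, and that of Aen at base 11 after the start shown; the same site lies 121 bases before a second annotated start of Aen. A match describes the letters only, and none of these windows was tested for binding.
Bax, minus strand of chr7:45466849-45467148: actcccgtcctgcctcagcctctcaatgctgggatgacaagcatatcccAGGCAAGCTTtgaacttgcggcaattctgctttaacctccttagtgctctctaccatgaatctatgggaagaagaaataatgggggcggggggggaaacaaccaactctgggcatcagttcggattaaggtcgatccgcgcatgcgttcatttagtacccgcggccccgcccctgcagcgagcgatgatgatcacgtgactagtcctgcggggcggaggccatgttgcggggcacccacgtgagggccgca
Aen, plus strand of chr7:78895677-78895976: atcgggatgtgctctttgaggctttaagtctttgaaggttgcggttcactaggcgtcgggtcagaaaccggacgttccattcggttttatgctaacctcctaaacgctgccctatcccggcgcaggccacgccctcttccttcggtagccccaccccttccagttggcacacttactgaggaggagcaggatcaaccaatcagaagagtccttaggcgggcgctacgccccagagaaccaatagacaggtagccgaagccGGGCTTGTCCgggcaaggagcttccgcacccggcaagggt
Fas, plus strand of chr19:34290409-34290708: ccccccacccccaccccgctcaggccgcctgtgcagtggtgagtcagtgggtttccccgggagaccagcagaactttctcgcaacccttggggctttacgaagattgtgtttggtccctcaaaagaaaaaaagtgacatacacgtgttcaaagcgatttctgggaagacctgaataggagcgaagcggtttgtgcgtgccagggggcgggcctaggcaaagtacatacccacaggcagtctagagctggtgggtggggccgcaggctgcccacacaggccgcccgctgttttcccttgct
Pidd1, minus strand of chr7:141443976-141444275: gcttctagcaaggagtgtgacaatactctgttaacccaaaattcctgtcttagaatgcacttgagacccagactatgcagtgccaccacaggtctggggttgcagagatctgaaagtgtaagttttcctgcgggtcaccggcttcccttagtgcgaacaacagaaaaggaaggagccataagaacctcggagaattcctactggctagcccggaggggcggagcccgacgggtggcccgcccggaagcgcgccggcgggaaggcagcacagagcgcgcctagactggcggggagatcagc

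Of the cell surface receptors, Fas rose, the 3 probes of Tnfrsf10b did not pass, and Eda2r was well above background only in the FBL-knock down samples. Fas, the receptor for FAS ligand, had −1.85 and −1.92 in the FBL-knock down samples, against −3.70 and −3.61 in the controls. Each pair was close together, with gaps of 0.07 and 0.09, and the groups lay 1.70 apart at their nearest. The change was 1.77 ± 0.22, or 3.42-fold with an interval of 2.43 to 4.82 (limma adjusted p = 0.00146). The probe is dim, with spot signals of 155 to 190 and 124 to 145 in FBL-knock down 1 and 2, against 31.2 to 55.3 and 41.7 to 84.1 in controls 1 and 2. Its 10 spots varied with a standard deviation of 0.09 and 0.08 on the log2 scale in FBL-knock down 1 and 2, against 0.26 and 0.30 in controls 1 and 2. With normexp background correction the change was 0.88 and still passed (adjusted p = 0.00646). The offset of 50 added there lies within the range of the control spot signals and shrinks the change of a dim probe. The smaller change is therefore not a separate estimate of the size of the rise.

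Tnfrsf10b encodes the only death receptor for TRAIL in the mouse. Its probe A_52_P10134 had −2.43 and −2.60 in the FBL-knock down samples, against −3.24 and −3.49 in the controls. Probe A_51_P389028 had −0.06 and −0.14 in the FBL-knock down samples, against −0.52 and −0.83 in the controls. Probe A_52_P351638 had −0.31 and −0.30 in the FBL-knock down samples, against −0.89 and −1.02 in the controls. At all 3 probes the FBL-knock down samples lay above the controls, and the probes gave changes of like size. These were 0.85 ± 0.23, 0.58 ± 0.23 and 0.65 ± 0.22 in the same order (limma adjusted p = 0.0612, 0.198 and 0.133). Without control 1 the changes were 0.98, 0.73 and 0.71 in the same order. Probe A_52_P10134 passed in 6 of 14 alternatives. Among these were the fits without control 1 and without control 2, which leave out the spread between the controls.

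Eda2r encodes a receptor for ectodysplasin that belongs to the tumour necrosis factor receptor family. It was well above background on both FBL-knock down arrays, at −5.18 and −4.73, and on neither control array, where its signal stood at −7.63 and −6.14. The controls lay 1.49 apart, the widest gap among the 17 probes, and both were under the FBL-knock down samples. The controls therefore give only a bound, which was not tested. Each control was set at the lowest signal well above background of any probe on its array, or at the probe's own value where higher. In the deposited values the floors were −5.51 in control 1 and −5.997 in control 2. The mean of the FBL-knock down samples was 1.74-fold above the mean of these floors. The floor is not particular to this probe, so the bound is approximate. The probe entered the test only through the FBL-knock down arrays. Its fitted change of 1.93 ± 0.41 (limma adjusted p = 0.0234) rests on control signals that were not well above background. The call ended at changes of like size when scaled by the percentile over bright probes (1.99, adjusted p = 0.0554) and by quantiles (2.07, 0.0899). With normexp the change was 0.07 (adjusted p = 0.944). That fit added an offset of 50 to every signal, which shrinks the log2 changes of dim probes. At a probe as dim as this one, its result therefore cannot decide whether Eda2r changed. Without control 1 the change of Eda2r was 1.19, and without control 2 it was 2.68.

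Apaf1 and Pidd1 build the platforms on which initiator caspases are activated, and for both of them 2 of 3 probes rose. The Apaf1 probe A_51_P417701 had 0.53 and 0.58 in the FBL-knock down samples, against −1.10 and −0.50 in the controls. Probe A_51_P368696 had −2.97 and −3.11 in the FBL-knock down samples, against −4.68 and −4.25 in the controls. Probe A_52_P621991 had −3.16 and −3.22 in the FBL-knock down samples, against −2.66 and −3.21 in the controls. At the first 2 probes the FBL-knock down samples lay above both controls by more than 1, and at the last they lay at control 2 and under control 1. The changes were 1.36 ± 0.26 (limma adjusted p = 0.0135), 1.42 ± 0.24 (0.00756) and −0.26 ± 0.25 (0.645).

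The interval of the last Apaf1 probe, −0.82 to 0.31, does not meet those of the first, 0.78 to 1.94, and of the second, 0.88 to 1.97. Probes A_51_P368696 and A_52_P621991 carry the same transcript accession, and probe A_51_P417701 carries another accession of Apaf1. With the mean over its 3 probes Apaf1 had a change of 0.84 and did not pass (adjusted p = 0.0549), and without FBL-knock down 1 both rising probes lost their calls (adjusted p = 0.0596 and 0.0706). Within slide 1 the call of A_51_P417701 ended at a change of 1.33. With normexp the call of A_51_P368696, the dimmer of the rising pair, ended with a change of 0.50 (adjusted p = 0.267). The offset of 50 added in that fit shrinks the changes of dim probes, so this loss cannot be told apart from the setting.

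Pidd1 encodes a death domain protein that recruits an initiator caspase into the PIDDosome. Its probe A_51_P121236 had 1.94 and 2.15 in the FBL-knock down samples, against 0.70 and 0.28 in the controls. Probe A_52_P543274 had 0.85 and 1.04 in the FBL-knock down samples, against −0.39 and −0.91 in the controls. Probe A_52_P79318 had −0.97 and −0.33 in the FBL-knock down samples, against −0.49 and −1.16 in the controls. The groups lay at least 1.24 apart at the first 2 probes and overlapped at the last. The changes were 1.55 ± 0.24 (limma adjusted p = 0.00481), 1.60 ± 0.25 (0.00527) and 0.17 ± 0.30 (0.813). All 3 probes carry the same transcript accession, and with their mean Pidd1 had a change of 1.11 and passed (adjusted p = 0.0347). Within slide 1, which leaves out FBL-knock down 2, the call of A_51_P121236 ended (adjusted p = 0.0532) and that of A_52_P543274 held (0.0401).

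Perp encodes a membrane protein of desmosomes that was first found as a p53 effector in dying cells. It had 4.67 and 4.37 in the FBL-knock down samples, against 2.49 and 2.47 in the controls. Its controls were almost equal, and the lower FBL-knock down sample stood 1.88 above them. The change of 2.04 ± 0.23 was the largest in this fit among the 16 probes well above background on all 4 arrays, a 4.11-fold rise with an interval of 2.87 to 5.87 (limma adjusted p = 0.000886). It ran from 1.89 to 2.19 over the alternatives.

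Aen encodes a nuclease that enhances apoptosis. Its probe A_52_P443705 had 4.90 and 4.95 in the FBL-knock down samples, against 4.31 and 3.95 in the controls. Its probe A_51_P481052 had −0.38 and −0.26 in the FBL-knock down samples, against −0.83 and −1.27 in the controls. Both probes were higher in both FBL-knock down samples, with control 2 the lowest, and they agree within their standard errors. The changes were 0.80 ± 0.24 (limma adjusted p = 0.0843) and 0.73 ± 0.24 (0.123). They were 0.98 and 0.95 without control 1, and 0.61 and 0.51 without control 2. With normexp probe A_52_P443705 had a change of 0.84 and passed (adjusted p = 0.0120). That fit gave every probe the same variance, so the pass followed the size of the change alone.

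The other genes of these routes were set beside the 10, each by its brightest tested probe. Of 12820 tested genes with a symbol, 4.27% were higher and 2.3% were lower, with a median change of −0.06. By the same measure 6 of the 10 death genes were higher and 0 lower, or 5 of 9 without Eda2r, with a median of 1.46, or 1.08 with Eda2r at its bound. Of 35 tested p53 targets outside the 10, 18 were higher and 0 were lower, with a median of 0.90. Tap1, a subunit of the peptide transporter of antigen presentation, rose by 2.74 ± 0.24 (limma adjusted p = 0.00031), and Plk2, a polo-like kinase, by 2.46 ± 0.22 (0.000345). Cdkn1a, the cell cycle inhibitor p21, was 1.99-fold higher (limma adjusted p = 0.0478), a call that ended at nearly the same change without FBL-knock down 1 (0.373), without FBL-knock down 2 or within slide 1 (0.478), and with no filter (0.383). Like the 10 genes, the list was chosen with earlier results of these data known, so neither count is independent support.

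Of 11 tested genes among p53 and its regulators, 2 were higher and 0 lower, with a median of 0.05. Mdm2 rose by 1.49 ± 0.23 (limma adjusted p = 0.00426), and Trp73, a p53 relative, by 1.49 ± 0.27 (0.01004). Trp53 had 3.95 and 3.87 in the FBL-knock down samples, against 3.48 and 2.85 in the controls, a change of 0.74 ± 0.26 that did not pass (limma adjusted p = 0.146), and its other probe had 0.15 ± 0.26. The change of the first probe was 1.06 without control 1 and 0.42 without control 2. That probe passed with trend (adjusted p = 0.0440) and with trend and robust (0.0144).

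The other lists of apoptosis genes are small beside the 4.27% of genes higher and 2.3% lower over the array, and a count of 0 in them is near that background. In limma, 0 of 8 further BH3-only genes, 0 of 5 prosurvival BCL2 genes, 0 of 11 apoptosome and caspase genes and 0 of 11 further death receptor pathway genes passed in either direction, and the one tested pore-forming relative of Bax, Bak1, had a change of −0.22 ± 0.26. The medians were −0.27, 0.13, −0.14 and −0.04 in that order, and that of the BH3-only genes was 0.0039 without FBL-knock down 2 and −0.04 without control 1, and that of the prosurvival genes −0.04 without control 2. An unadjusted p under 0.05 was reached by 1, 0, 1 and 1 gene in the same order. The BH3-only gene was Bnip3 (−0.90 ± 0.24, adjusted p = 0.0560). Casp8, the initiator caspase of the death receptors, had −0.64 ± 0.23 (adjusted p = 0.156). Bnip3, Casp8 and Bak1 were named after their values were seen. Under several alternatives 1 BH3-only gene or 1 to 2 apoptosome and caspase genes were called lower.

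**Figure D3:**
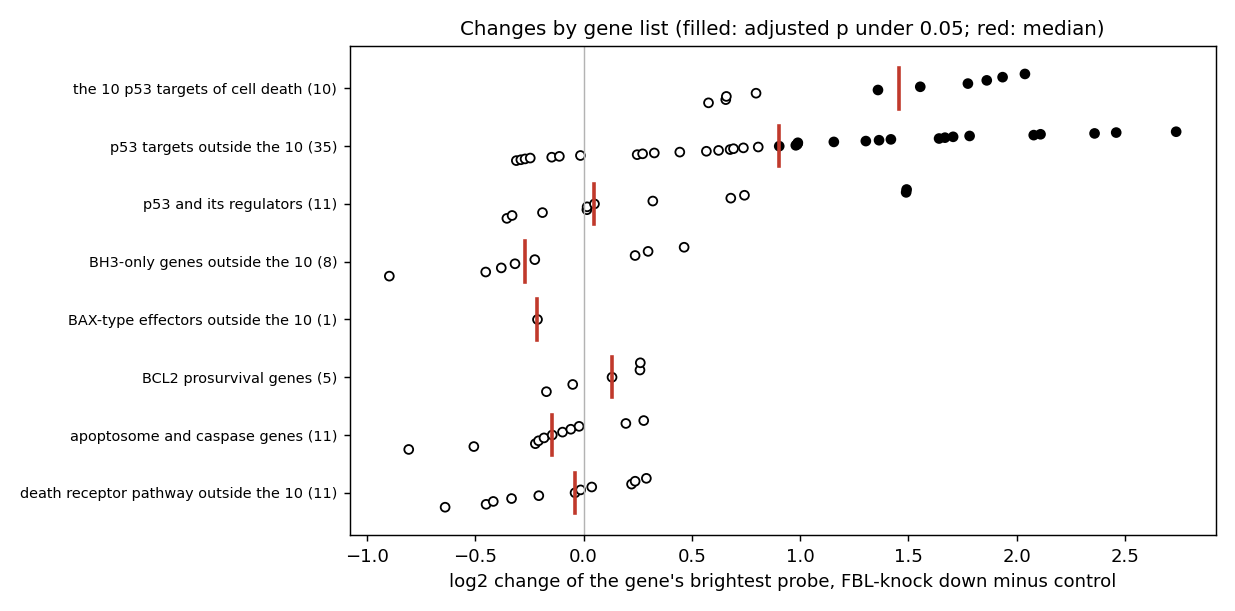
Change of each gene's brightest tested probe, FBL-knock down minus control on the log2 scale, by gene list with the number tested in brackets; filled points passed limma's test at an adjusted p under 0.05 and red lines mark medians. Filled points are found among the 10 death genes (6), the other p53 targets (18) and p53 and its regulators (2), and the 4 lists of 5 or more other apoptosis genes hold 0.

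The 5 genes whose 4 values, centred on their own mean, lay closest to the mean centred profile of the 10 were Dgka, Samd12, Hyal1, Ccdc113 and Cdh13, at Euclidean distances of 0.06 to 0.12 on the log2 scale. The profile stood at 0.64 and 0.68 in the FBL-knock down samples, against −0.69 and −0.63 in the controls. Dgka, a diacylglycerol kinase, had 3.89 and 3.90 in the FBL-knock down samples, against 2.48 and 2.59 in the controls. The 10 genes themselves lay 0.39 (Apaf1) to 1.22 (Eda2r) from their mean. That mean includes Eda2r, whose control signals were not well above background, and it was not redone without this gene. The measure rests on 4 arrays and describes them only.

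Of 36 markers of other cell types, 22 were well above background on all 4 arrays and 7 on none. Levels were summed after undoing the log2, so the brightest markers weigh most and a sum need not follow most markers of its list. Summed over 7 trophectoderm markers, the level relative to the 75th percentile was 24.9 and 21.2 in the FBL-knock down samples, against 14.2 and 11.96 in the controls, with 1 marker higher and 1 lower in limma. Summed over 8 fibroblast markers it was 3.23 and 3.55 in the FBL-knock down samples, against 6.71 and 4.32 in the controls, with Col3a1, Dcn and Postn well above background on no array and 0 markers called. Over 8 primitive endoderm markers it was 0.32 and 0.31 in the FBL-knock down samples, against 0.60 and 0.39 in the controls, with 1 marker lower and Pdgfra and Afp well above background on no array. The sums were 7.81 and 9.09 in the FBL-knock down samples, against 12.02 and 7.65 in the controls, for 7 neural markers with 0 called, and 0.61 and 0.61 against 0.56 and 0.48 for 6 mesoderm markers with 1 higher. The part of these cell types in the changes of the death genes was not tested.

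Pmaip1, Fas and Perp passed in 14 of 15 alternatives each, and the exception was the fit with no filter on dim probes, where 0 probes of the whole array passed. The probes of Bbc3, Bax and Aen and the 3 of Tnfrsf10b moved across the threshold with the fit: 15 of the 17 probes, of all 10 genes, passed without control 1, where 11.9% of all tested probes were higher, and 13 passed with a trended and robust variance prior, where 5.78% were. Within slide 1, which is the same as leaving out FBL-knock down 2, 6 of the 17 passed, of the same 6 genes, where 1.79% of all tested probes were higher. Without FBL-knock down 1 it was 6 (2.22% of all), without control 2 it was 9 (5.96%), and with a trended prior 11 (4.98%). Normexp gave 7 (2.99%), quantile normalization 7 (3.11%), the percentile over bright probes 8 (3.76%), the scanner signals 8 (3.64%), the filter on all 4 arrays 9 (4.23%) and the replicate block 8 (4.95%). Adjusted over genes rather than probes, 6 of the 10 passed by the brightest probe (3.93%) and 5 by the mean over probes (3.85%). At 12 of the 17 probes control 2 was lower than control 1, which 59.9% of all tested probes were, and at 16 of the 17 the gap between replicates was smaller in the FBL-knock down samples than in the controls, as at 78.0% of all tested probes. With 2 samples per group an exact permutation test of a single value cannot go below p = 0.333 (two-sided), so single probes rest on the variance that limma shares across probes. A fit that leaves out 1 array takes no spread from the group left with 1 sample. Its counts are therefore not on the footing of the other fits.

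**Figure D4:**
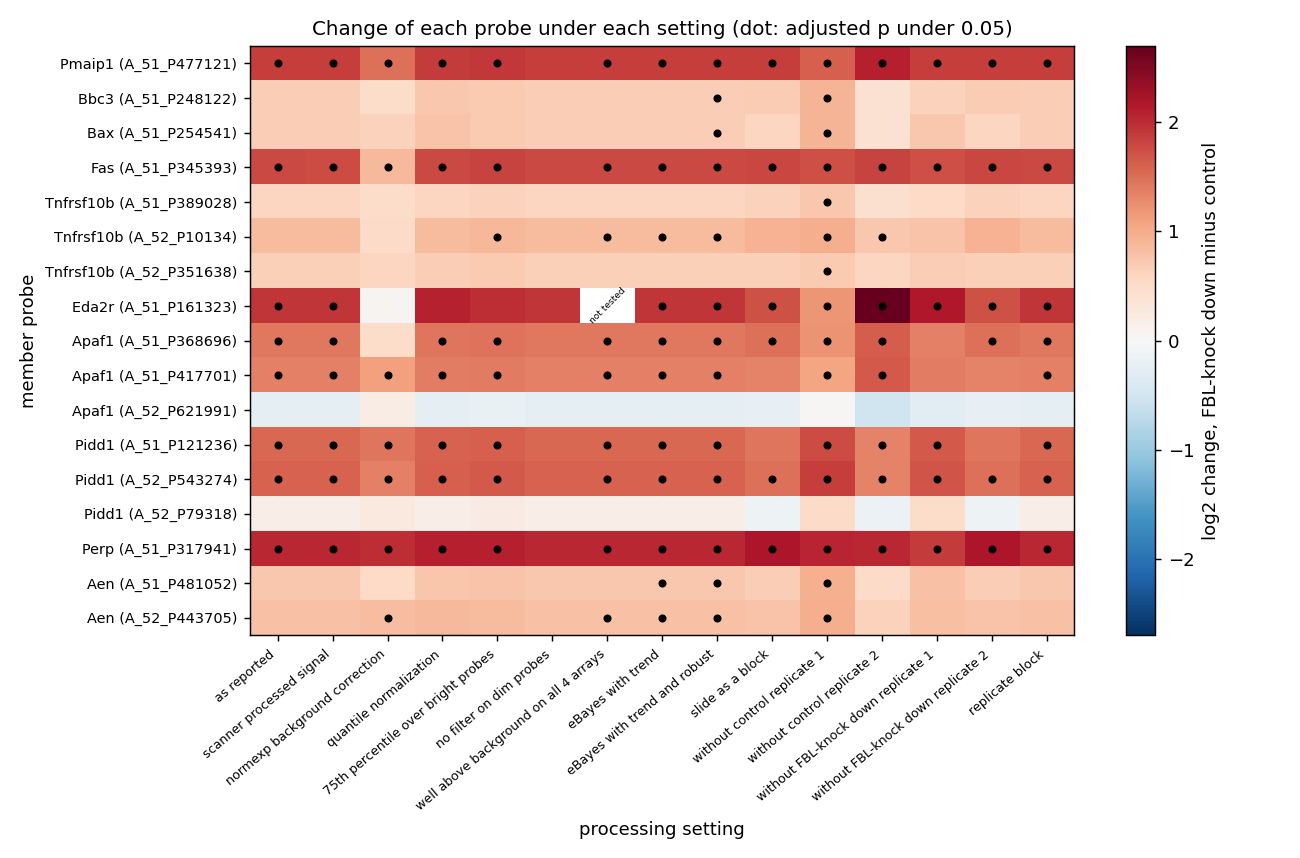
Colour gives the log2 change, FBL-knock down minus control, of each of the 17 probes (down the page) in the fit as reported and in 14 alternatives (across), and a dot marks an adjusted p under 0.05; the white cell is Eda2r, not tested with the filter on all 4 arrays. The dots of Pmaip1, Fas and Perp are missing in 1 column, the fit with no filter, and those of Bbc3 and Bax appear in 2 columns each.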

How the data were processed

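Values came from the authors' deposited table of log2 signals, of which 99.9% per array equalled, to within 0.01, the log2 of the processed signal less 1 constant. Each array's 75th percentile stood at 0 to within 0.01, with no centring by probe. Spot intensity came from Agilent Feature Extraction (version 10.7.3.1, per the file headers), whose deposited files also carry background-subtracted signals and statistics of spatial detrending. Its values are not scaled between arrays. What software made the table is not stated in these sources. A probe entered the test when, in at least 1 group, most of its spots were well above background on each array (25100 of 41174 probes). Probes were named through RefSeq accessions (GRCm38.p6), which gave 24375 probes 1 symbol each and left 16799 without. Probe coordinates are left out, since the design uses a different build.

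Groups were compared by probe with limma 3.58.1 in R 4.3.3 (lmFit, eBayes, two-sided), with Benjamini-Hochberg adjustment over all tested probes, and the fit was tested on simulated data. Changes are FBL-knock down minus control with the SE of the fit, and intervals are 95%. Named genes are the 10 members, Fbl, Trp53, Mdm2, Cdkn1a, up to 2 called genes per list and direction with the largest change, and the 5 genes of nearest profile; Bnip3, Casp8 and Bak1 fall outside this rule. Members and lists were chosen with earlier results of these data known. The files carry no mean spot signal, so normexp (offset 50) used the median signal. The offset shrinks the log2 changes of dim probes, so normexp results at such probes depend on this setting. The number of arrays limits the precision.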

Additional observations from a re-analysis of the deposited data

How the results depend on the processing

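Over the 17 probes of the death genes and their alternatives, 204 results kept their direction and side of the threshold, 18 calls were lost, 20 were gained and 5 changes of uncalled probes turned sign. The turns were those of the Apaf1 probe A_52_P621991 with normexp (0.19) and without control 1 (0.022; from −0.53 to 0.022 over arrays left out), and of the Pidd1 probe A_52_P79318 with the slide as a block and without FBL-knock down 2 (−0.15 each) and without control 2 (−0.16; from −0.16 to 0.51 over arrays left out). The count of 8 higher probes was 0 with no filter on dim probes and 13 with a trended and robust prior, and 6 to 15 when 1 array was left out. With no filter 41174 probes were adjusted for, and 12 of the 17 had an unadjusted p under 0.05 (3857 of all). The lowest adjusted p of the 17 was 0.113. The filter does not alter a change, and Fbl, at −2.41, lost its call too (limma adjusted p = 0.105). By gene, the 6 higher became 0 with no filter and 10 with a trended and robust prior at any probe, and 0 with no filter at the brightest probe. Leaving out 1 array gave 5 to 10 at any probe and 4 to 10 at the brightest.

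Over all probes, 917 higher and 609 lower became 0 and 0 with no filter, 1452 and 1184 with trend and robust, and 450 and 230 with the slide as a block. The lower count was 400 with quantile normalization and 982 with trend. Leaving out 1 array gave 450 to 2975 higher and 230 to 2348 lower. Of the other p53 targets, 18 higher became 0 with no filter and 9 with the slide as a block, and 9 to 25 without 1 array. Of p53 and its regulators, 2 higher became 0 with no filter, 4 with trend, 4 with trend and robust, and 1 to 4 without 1 array. A BH3-only gene was lower (1) with normexp, with all 4 arrays above background, with trend, with trend and robust and with the replicate block, and an apoptosome or caspase gene (1) with all 4 arrays above background, with trend and with trend and robust. Without 1 array these lists gave 0 to 1 and 0 to 2 lower, the BH3-only list 0 to 1 higher, and the death receptor list 0 to 1 higher and 0 to 1 lower. The cause was not tested.

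The replicate numbers are not stated to pair the samples, and deviations of same-numbered samples correlated at 0.02 over 25100 probes. With the replicate block 1242 probes were higher and 997 lower, and the same 8 probes of the death genes passed. With normexp, the slide block, the replicate block and either FBL-knock down array left out, the prior had infinite degrees of freedom, so each fit gave every probe 1 variance and the calls followed the size of the change alone. Without control 1 or control 2 the spread came from the FBL-knock down pair alone.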
